A study of Mus musculus with 8 samples.

Results

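The enzymes that hydroxylate and cross-link collagen were followed as 10 genes taken by symbol, namely the lysyl oxidases Lox, Loxl1, Loxl2 and Loxl3, the lysyl hydroxylases Plod1, Plod2 and Plod3, the prolyl 4-hydroxylase alpha subunits P4ha1 and P4ha2, and the collagen chaperone gene Serpinh1. All 10 were on the array, with 16 of its 55681 probes, and all 10 were among the 17093 features tested. The cells were fibroblasts grown from the skin of newborn C57BL/6 mice, cultured in serum and transfected either with oligonucleotides that mimic miR-127-3p (arrays 2, 4, 5 and 7) or with control oligonucleotides (arrays 1, 3, 6 and 8). Each RNA sample was labelled with Cy3 and read on an array of its own, and all 8 arrays lay on 1 slide. For arrays 3 and 6 the treatment label names both oligonucleotides, so their group was taken from the sample titles. The labels do not tell whether the 4 samples of a group came from separate animals or cultures, so p-values measure the spread between these samples, which may be technical.

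Collagen chains are modified inside the endoplasmic reticulum before they fold. Prolyl 4-hydroxylases hydroxylate proline, which steadies the triple helix, and lysyl hydroxylases hydroxylate lysine, which serves as a point for sugar attachment and later for cross-links. The chaperone made from Serpinh1, also called Hsp47, holds the folded triple helix on its way out of the cell. Outside the cell the copper-dependent lysyl oxidases oxidise lysine and hydroxylysine, and the products bond neighbouring molecules of collagen and elastin, which stiffens dermis and scar tissue.

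The transfected mimic stands for a mature microRNA of 22 bases, which RefSeq places on the plus strand of GRCm38.p6 at chr12:109592888-109592909. It is shown because it is the agent that separates the groups, with its seed, bases 2 to 8, in capitals.
miR-127-3p: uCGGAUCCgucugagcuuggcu
Matches of this seed in the members' transcripts were not analysed here.

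Of the 10 genes, Lox, Loxl1 and Plod3 rose with the mimic, Loxl2 and Serpinh1 fell, and 5 did not pass the test (limma, adjusted p under 0.05). Over all features tested, 34.2% passed, 15.9% higher and 18.3% lower with the mimic. The 3 rises and 2 falls among 10 genes stand beside these rates, and whether they differ from them was not tested. The median log2 fold change of the 10 was 0.10, and that of all tested features was 0.02. No member changed 2-fold or more, beside a share of 7.45% of all tested features that passed the test with such a change. For 4 of the 10 genes the arrays of the groups did not overlap, which was so for 34.2% of all tested features. In these bulk RNA samples, fewer cells of a type and less RNA per cell cannot be told apart.

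Values below are log2 signals relative to the array's 75th percentile, so that 0 is the brightness at that percentile, and they are given for mimic arrays 2, 4, 5 and 7 and then for control arrays 1, 3, 6 and 8. They compare arrays for 1 probe and do not rank genes against each other. Of the lysyl oxidases, Lox, the founding member of the family, read 4.76, 4.91, 5.05 and 4.70 with the mimic, against 3.86, 4.26, 3.75 and 3.89 in controls. Every mimic array lay above every control array. Lox averaged 4.85 ± 0.16 with the mimic and 3.94 ± 0.22 in controls (SD, n = 4 each), a 1.88-fold rise with a log2 fold change of 0.91 (limma adjusted p = 0.00114, SE 0.13). Its second probe read 4.60, 4.81, 4.43 and 4.38 with the mimic, against 3.69, 3.82, 3.45 and 3.62 in controls. This probe gave the same log2 fold change, 0.91 (limma adjusted p = 0.000811, SE 0.12 when every probe was tested singly).

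Loxl1, known from mice as the oxidase needed to maintain elastic fibres, rose by less. It read 6.22, 6.31, 6.20 and 6.19 with the mimic, against 5.87, 5.97, 5.87 and 5.80 in controls. The groups did not overlap, and the log2 fold change was 0.35 (1.28-fold, limma adjusted p = 0.00695, SE 0.07). Its second probe read 4.42, 4.59, 4.63 and 4.55 with the mimic, against 4.20, 4.49, 4.44 and 4.10 in controls. On that probe the groups overlapped and the change of 0.24 did not pass (limma adjusted p = 0.120, SE 0.11).

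Loxl2, a lysyl oxidase whose scavenger receptor repeats set it apart from Lox, fell. It read 5.05, 5.53, 6.11 and 5.47 with the mimic, against 6.29, 6.74, 6.41 and 5.94 in controls. The groups overlapped in mimic array 5, which lay above control array 8. The means were 5.54 ± 0.43 with the mimic and 6.34 ± 0.33 in controls (SD, n = 4 each), a log2 fold change of -0.80 (a ratio of 0.573, limma adjusted p = 0.0302, SE 0.24). The other 2 probes of Loxl2 pointed the same way, with log2 fold changes of -0.59 (limma adjusted p = 0.169, SE 0.31) and -0.51 (limma adjusted p = 0.203, SE 0.29), and neither passed. The call of Loxl2 was lost without any 1 of 6 arrays (control 1, 3 or 6, or mimic 2, 4 or 7), with adjusted p-values of 0.0623, 0.0640, 0.0656, 0.0639, 0.0688 and 0.0704 in that order. With the mean of its probes in place of the brightest, the log2 fold change was -0.64 (adjusted p = 0.107).

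Loxl3, the closest relative of Loxl2 among the members, read 2.66, 2.45, 3.48 and 2.37 with the mimic, against 2.89, 3.43, 2.62 and 2.65 in controls. Mimic array 5 and control array 3 were the highest of their groups by a wide margin, and the groups overlapped. The log2 fold change was -0.16 (limma adjusted p = 0.684, SE 0.27) and the difference was smaller than the spread between replicates, with an SD of 0.51 with the mimic and 0.37 in controls.

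**Figure D1:**
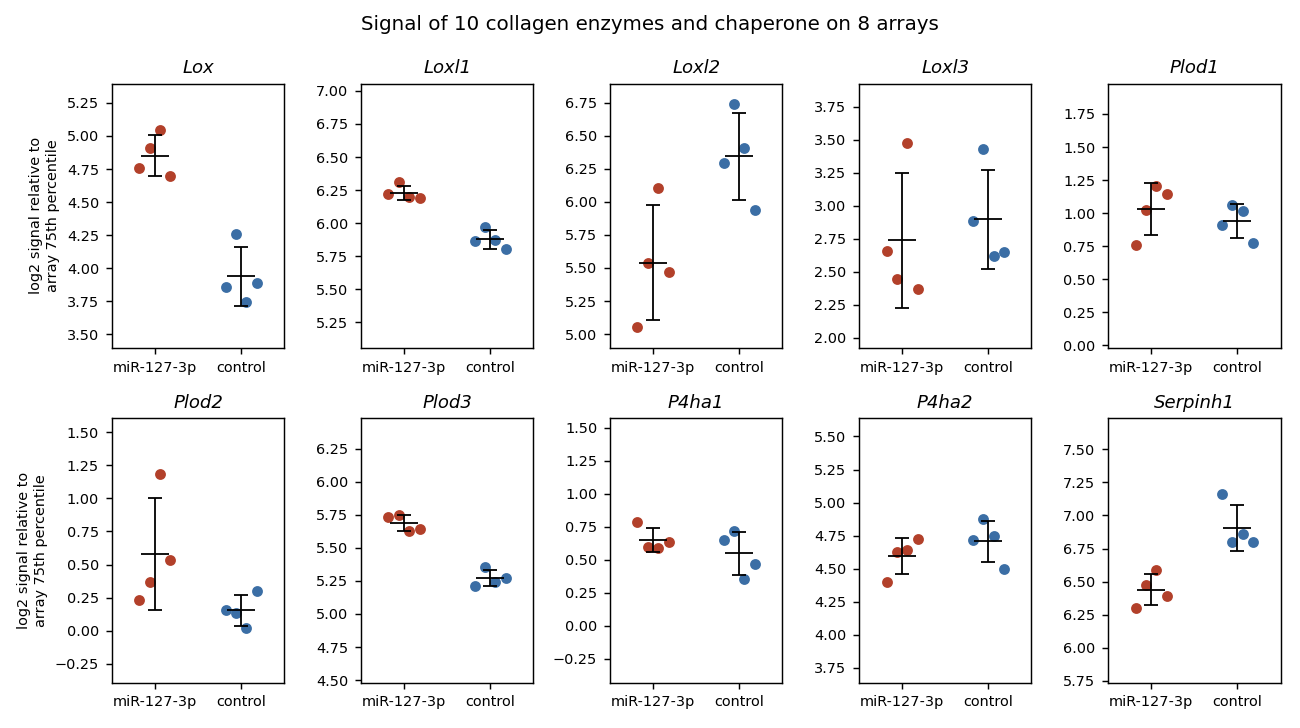
Log2 signal relative to the array's 75th percentile (y) of the probe that represents each of the 10 genes, in miR-127-3p (red, left) and control arrays (blue, right). Points are arrays, lines are the mean ± SD of 4 arrays, and every panel spans the same height on the log2 scale. The groups do not overlap for Lox, Loxl1, Plod3 and Serpinh1, and they overlap for Loxl2, where mimic array 5 (6.11) lies above control array 8 (5.94).

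Among the lysyl hydroxylases, only the Plod3 probe passed the test. Plod3 encodes LH3, which also attaches sugars to hydroxylysine. It read 5.74, 5.75, 5.63 and 5.64 with the mimic, against 5.21, 5.35, 5.24 and 5.27 in controls. All 4 mimic arrays lay above all 4 controls, and the SD was 0.06 in each group. The log2 fold change was 0.42 (1.34-fold, limma adjusted p = 0.00298, SE 0.07).

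Plod2, which encodes LH2, the enzyme that hydroxylates lysine in the collagen telopeptides and so directs the type of cross-link, read 0.24, 0.37, 1.19 and 0.54 with the mimic, against 0.16, 0.13, 0.02 and 0.30 in controls. Mimic array 5 stood well above the rest, and mimic array 2 lay below control array 8. The log2 fold change was 0.43 and did not pass (limma adjusted p = 0.123, SE 0.19), and without mimic array 5 it was 0.23 (adjusted p = 0.149). Plod1, which encodes the hydroxylase of lysines in the helical part, read 0.76, 1.02, 1.20 and 1.14 with the mimic, against 0.91, 1.06, 1.02 and 0.77 in controls. Its log2 fold change was 0.09 (limma adjusted p = 0.587, SE 0.12), and its second, dimmer probe gave -0.06 (SE 0.18). The groups overlapped on both probes.

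Neither prolyl 4-hydroxylase subunit passed the test, with 0 of 2 called, also at an unadjusted p under 0.05 (limma). P4ha1, the main catalytic subunit in most cells, read 0.78, 0.59, 0.59 and 0.63 with the mimic, against 0.65, 0.72, 0.36 and 0.47 in controls, a log2 fold change of 0.10 (limma adjusted p = 0.467, SE 0.10). Its second probe was well above background on 2 of 4 mimic and 3 of 4 control arrays and gave -0.14 (SE 0.20). P4ha2, the second form of the subunit, read 4.40, 4.63, 4.64 and 4.72 with the mimic, against 4.72, 4.87, 4.74 and 4.50 in controls, a log2 fold change of -0.11 (limma adjusted p = 0.465, SE 0.11). The values of both genes overlapped between the groups, and their changes were no larger than about 1 standard error.

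Serpinh1 fell. It read 6.30, 6.47, 6.58 and 6.39 with the mimic, against 7.17, 6.80, 6.86 and 6.80 in controls. The groups did not overlap, and control array 1 was the highest of all 8. The means were 6.44 ± 0.12 with the mimic and 6.91 ± 0.17 in controls (SD, n = 4 each), a log2 fold change of -0.47 (a ratio of 0.723, limma adjusted p = 0.0111, SE 0.11). Without control array 1 the log2 fold change was -0.38 (adjusted p = 0.0209).

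**Figure D2:**
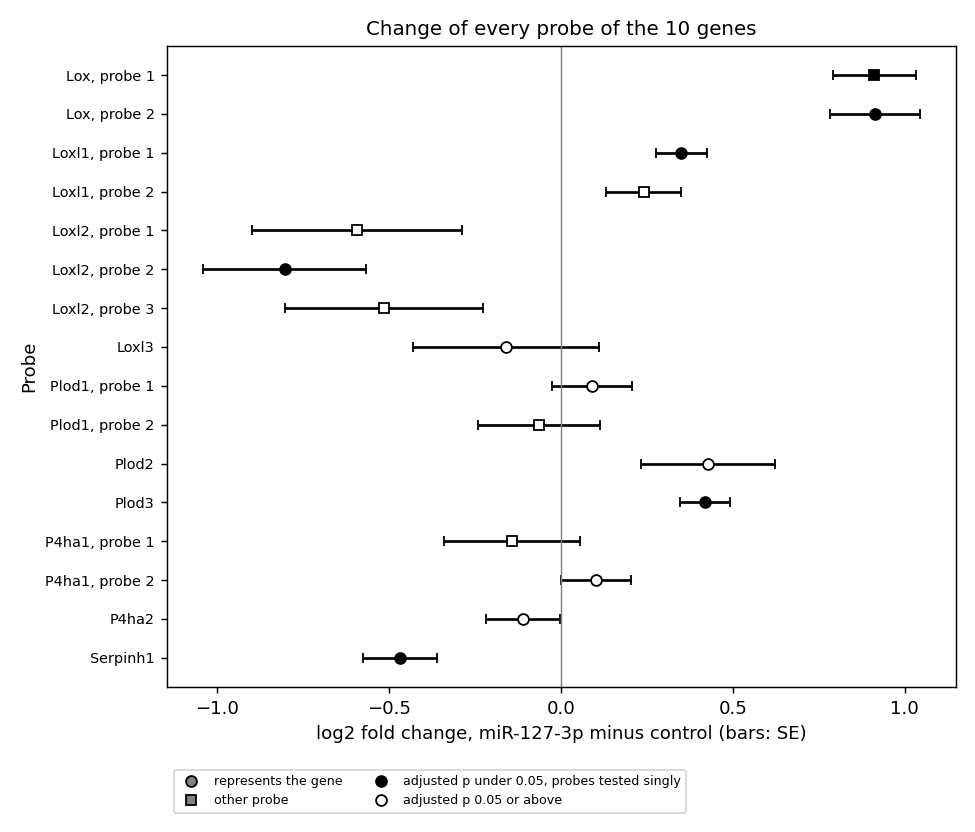
Log2 fold change, miR-127-3p minus control (x), with its SE, for each of the 16 probes of the 10 genes. Circles mark the probe that represents a gene, squares its other probes, and filled symbols an adjusted p under 0.05 when probes were tested singly; both probes of Lox lie at 0.91, and all 3 probes of Loxl2 lie below 0 with 1 of them filled.

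Whether members of a family responded unequally was tested within arrays, as the difference between 2 paralogs' log2 signals, over 10 pairs with an exact permutation test (70 assignments of 4 and 4 arrays, two-sided, smallest p 0.0286). No pair passed after adjustment over the 10 pairs, and 5 had the smallest p the design allows (exact permutation p = 0.0286, adjusted p = 0.0571). When 5 of 10 pairs share that smallest p, adjustment gives 0.0571 however large their differences are. That these 5 did not pass is therefore no sign that the paralogs responded alike. The largest difference was that of Lox minus Loxl2, 1.72 on the log2 scale (95% interval 1.22 to 2.22). Loxl1 minus Loxl2 differed by 1.15 (95% interval 0.52 to 1.78), Lox minus Loxl3 by 1.07 (0.55 to 1.60), Lox minus Loxl1 by 0.56 (0.28 to 0.85) and Loxl2 minus Loxl3 by -0.65 (-1.16 to -0.13). By the brightest probe of each gene, the changes of the 4 lysyl oxidases ran from 0.91 to -0.80. In these 5 pairs the intervals did not reach 0, but they assume normal spread and were not adjusted for the 10 pairs.

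The remaining pairs had intervals that reached 0. Loxl1 minus Loxl3 was 0.51 (95% interval -0.24 to 1.26, exact permutation p = 0.143, adjusted p = 0.179). Among the lysyl hydroxylases, Plod1 minus Plod3 was -0.33 (-0.67 to 0.01, exact permutation p = 0.0857, adjusted p = 0.143) and Plod1 minus Plod2 was -0.34 (-0.80 to 0.12). Plod2 minus Plod3 was 0.01, but with an interval from -0.59 to 0.61 that leaves room for sizeable differences in either direction. P4ha1 minus P4ha2 was 0.21 (-0.12 to 0.55, exact permutation p = 0.200, adjusted p = 0.222).

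The slide held its arrays in 2 rows, with 2 arrays of each group in row 1 (1 to 4) and in row 2 (5 to 8). Lox had log2 fold changes of 0.77 within row 1 and 1.06 within row 2, Loxl1 of 0.34 and 0.36, and Plod3 of 0.46 and 0.38. Serpinh1 had -0.60 within row 1 and -0.34 within row 2. The fall of Loxl2 was -1.22 within row 1 (adjusted p = 0.0476) and -0.39 within row 2 (adjusted p = 0.416), where mimic array 5 and control array 8 are the arrays that overlapped. The direction of these 5 genes was the same in both rows, but with 2 arrays against 2 only Lox in row 2 (adjusted p = 0.0379) and Loxl2 in row 1 passed the test, and Lox in row 1 (adjusted p = 0.0700) and Loxl1, Plod3 and Serpinh1 in either row did not (adjusted p from 0.107 to 0.179). With slide row as a block all 5 kept an adjusted p under 0.05, and with slide column as a block Loxl1 and Loxl2 did not (adjusted p = 0.0534 and 0.0583).

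Within the groups, several members varied together from array to array. With group means removed, Loxl2 and Plod1 had a Pearson r of 0.90 over the 8 arrays, Plod1 and P4ha2 of 0.90, Lox and Loxl3 of 0.83, Loxl2 and P4ha2 of 0.77, and Loxl2 and Loxl3 of 0.75. Loxl2 lay 0.57 above its group mean in mimic array 5 and 0.39 above it in control array 3, and 0.49 and 0.41 below it in mimic array 2 and control array 8. Plod1 and P4ha2 were lowest in the same arrays, mimic 2 and control 8. Loxl3 was highest in mimic array 5 (0.74 above its mean) and control array 3 (0.53 above). Serpinh1 and Plod3 had r = -0.62. The pairs were picked after their values were seen, all genes of an array share its labelling and scaling, and these correlations are given as a description.

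**Figure D3:**
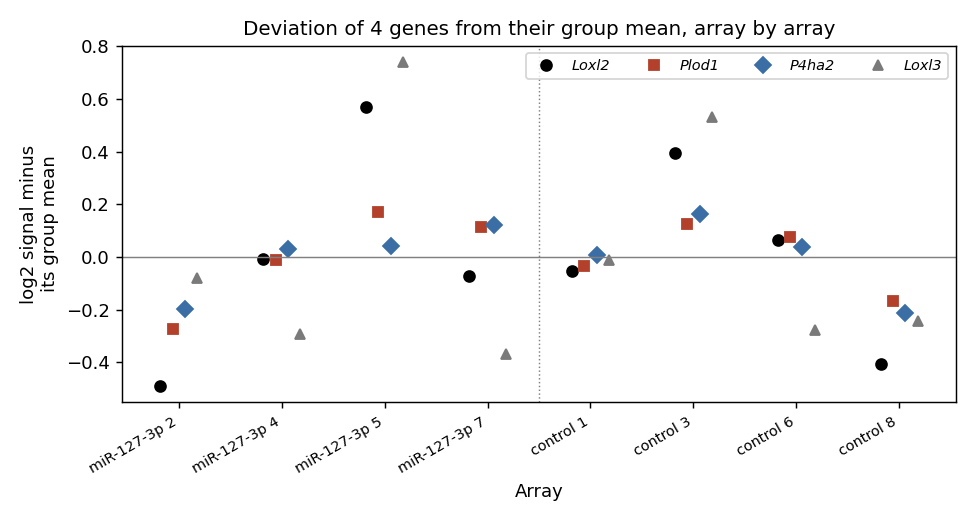
Log2 signal minus the group mean (y) for Loxl2, Plod1, P4ha2 and Loxl3 on each of the 8 arrays (x), mimic arrays left of the dotted line and control arrays right of it. Loxl2, Plod1 and P4ha2 are lowest in mimic array 2 and control array 8, and Loxl2 and Loxl3 are highest in mimic array 5 and control array 3; the 4 genes were chosen after their values were seen.

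By the same measure, the feature with a symbol whose array-to-array pattern was most like that of a member was Fosb for Lox (r = 0.98), Pgls for Loxl1 (r = 0.99), R3hcc1 for Loxl2 (r = 0.99), Lamtor4 for Plod3 (r = 0.99) and Acyp2 for Serpinh1 (r = 0.98), each over 8 arrays with group means removed. Each was the highest of 12031 tested features with a symbol, and so a high r in so few arrays is a ranking and no more.

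Promoter windows of RefSeq (GRCm38.p6) ran from 250 bases before to 50 after the gene's start. Those of 5 of the 10 members were searched, namely Plod1, Plod3, P4ha1, P4ha2 and Serpinh1. The search for members left out a chromosome, so a member's absence here does not mean that RefSeq has no window for it. The shares over all windows given below were not limited in this way. The windows of Plod3, which rose, and Serpinh1, which fell, are shown because these 2 passed the test among the 5 searched, and they moved in opposite directions. Capitals mark matches, on either strand, to the hypoxia response core ACGTG, the GC box GGGCGG, the CCAAT box and the heat shock core GAANNTTC. None of the matches overlap.
Plod3, chr5:136986769-136987068, plus strand: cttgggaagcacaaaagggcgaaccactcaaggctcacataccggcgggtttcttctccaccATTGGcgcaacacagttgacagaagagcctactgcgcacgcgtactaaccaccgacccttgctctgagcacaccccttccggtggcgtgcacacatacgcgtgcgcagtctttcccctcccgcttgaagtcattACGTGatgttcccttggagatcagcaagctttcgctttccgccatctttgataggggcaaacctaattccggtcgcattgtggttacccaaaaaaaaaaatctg
Serpinh1, chr7:99353190-99353489, minus strand: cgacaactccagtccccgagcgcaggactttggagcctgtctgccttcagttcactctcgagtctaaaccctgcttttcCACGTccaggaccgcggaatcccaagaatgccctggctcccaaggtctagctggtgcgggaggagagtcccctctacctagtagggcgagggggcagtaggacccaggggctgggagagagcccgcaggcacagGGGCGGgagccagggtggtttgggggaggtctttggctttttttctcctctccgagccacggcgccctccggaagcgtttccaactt
The Plod3 window held 1 ACGTG, 54 bases before the start, and 1 CCAAT box on the other strand. The Serpinh1 window held 1 ACGTG on the other strand and 1 GC box, 37 bases before the start. No GAANNTTC lay in either window, which says only that these letters are not in them.

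Among all 32851 windows, 19.6% held ACGTG, 35.7% the GC box, 37.4% CCAAT and 7.86% GAANNTTC. ACGTG was in 4 of the 5 members' windows, with 2 matches in P4ha2 and none in Plod1, and the GC box was in 4, with none in Plod3. GAANNTTC was in the Plod1 window alone, with 1 match, and CCAAT in the Plod3 window alone, with 1 match. The P4ha1 and P4ha2 windows had 70.3% G and C, that of Plod1 64.3%, that of Serpinh1 62.3% and that of Plod3 53.3%, against a median of 52.7% over all windows. A match describes the letters and is not a binding site.

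Several members, among them P4ha1, P4ha2, Plod2 and Lox, are known targets of the hypoxia-inducible factor, so its other targets were listed beside them. Of 20 listed, 18 were tested, of which 1 rose and 2 fell, with a median log2 fold change of -0.08. Over all tested features 15.9% were called higher and 18.3% lower, and whether these targets differ from that was not tested. Vegfa, the endothelial growth factor, read 4.94, 4.92, 4.94 and 4.98 with the mimic, against 4.43, 4.61, 4.50 and 4.56 in controls, a log2 fold change of 0.42 (limma adjusted p = 0.00287, SE 0.07). Ndrg1 fell by 0.62 on the log2 scale (limma adjusted p = 0.0110, SE 0.14). Egln1, which encodes an oxygen sensor of the same enzyme class as the prolyl 4-hydroxylases, had a log2 fold change of -0.74 (limma adjusted p = 0.0228, SE 0.20). It was well above background on 1 of 4 mimic arrays and 4 of 4 controls, and with normexp background correction the change was -0.11 (adjusted p = 0.606).

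Other genes of collagen assembly were taken from a list of 31, all on the array, of which 26 were tested. Of these, 5 rose and 0 fell (limma, adjusted p under 0.05), and 6 were higher and 0 lower at an unadjusted p under 0.05. These 5 and 0 of 26 stand beside the 15.9% of all tested features that were called higher and the 18.3% called lower. At an unadjusted p under 0.05 (limma), 3752 of all 17093 tested features were higher and 3906 lower. Whether the partners differ from these rates was not tested. The median log2 fold change was 0.10. P3h2, Colgalt2, Tll2, Adamts3 and Tmem38b were not tested for lack of signal.

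Efemp2, whose product fibulin 4 binds lysyl oxidase and tropoelastin, read 7.59, 7.42, 7.29 and 7.35 with the mimic, against 6.81, 6.88, 6.73 and 6.99 in controls, a log2 fold change of 0.56 (limma adjusted p = 0.00254, SE 0.09). Fbln5, the related elastic fibre protein fibulin 5, read 6.77, 6.48, 6.49 and 6.26 with the mimic, against 5.85, 5.78, 5.46 and 5.99 in controls, a log2 fold change of 0.73 (limma adjusted p = 0.00527, SE 0.14). Neither gene overlapped between the groups. Pcolce, which speeds the removal of the collagen propeptide, read 8.34, 8.36, 8.28 and 8.36 with the mimic, against 8.05, 7.91, 7.90 and 7.78 in controls, a log2 fold change of 0.42 (limma adjusted p = 0.00401, SE 0.08).

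Atox1, a copper chaperone on the route to the secreted copper enzymes, had a log2 fold change of 0.43 (limma adjusted p = 0.0318, SE 0.13), and Tll1, a protease of the kind that removes the propeptide, of 0.74 (limma adjusted p = 0.0397, SE 0.23). The Atox1 call was lost without any 1 of 4 arrays (control 1 or 8, mimic 4 or 7) and the Tll1 call without any 1 of 6 (control 1, 6 or 8, mimic 2, 5 or 7), with adjusted p up to 0.0879 and 0.103. With slide column as a block neither passed (adjusted p = 0.0815 for Atox1 and 0.102 for Tll1), and with slide row as a block Tll1 did not (adjusted p = 0.0568). The nearest relatives of the members did not pass. The log2 fold change was 0.14 for Loxl4, the remaining lysyl oxidase (limma adjusted p = 0.582, SE 0.18), -0.12 for P4ha3, the third alpha subunit (limma adjusted p = 0.249, SE 0.08), and -0.09 for P4hb, the protein disulfide isomerase that is the beta subunit of prolyl 4-hydroxylase (limma adjusted p = 0.466, SE 0.09). Of the 2 probes each of Loxl4 and P4ha3, 1 pointed the other way.

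The substrates are the fibrillar collagens and elastin. Of 10 listed, 7 were tested, of which 1 rose and 1 fell, beside 15.9% called higher and 18.3% called lower over all tested features. The chains of type I collagen, the main collagen of dermis, had log2 fold changes of 0.07 (Col1a1, SE 0.11, adjusted p = 0.647) and 0.06 (Col1a2, SE 0.08, adjusted p = 0.614). Col3a1 read 5.81, 5.24, 5.19 and 5.12 with the mimic, against 6.81, 5.51, 6.56 and 6.74 in controls, a log2 fold change of -1.07 (limma adjusted p = 0.0232, SE 0.29). Control array 3 lay below mimic array 2. The Col3a1 call was lost without any 1 of 6 arrays (control 1, 6 or 8, mimic 4, 5 or 7), with adjusted p up to 0.0643.

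Col11a1, a minor chain that helps to set fibril width in cartilage, read -0.90, -1.33, -1.04 and -1.52 with the mimic, against -1.91, -2.07, -2.81 and -2.02 in controls (log2 fold change 1.01, SE 0.22, adjusted p = 0.00808). It was dim, with 3 of 4 control arrays well above background, and with normexp background correction its log2 fold change was 0.39 (adjusted p = 0.0401). The type V chains that start collagen fibrils did not pass, with log2 fold changes of 0.23 for Col5a1 (adjusted p = 0.166), -0.43 for Col5a2 (adjusted p = 0.0686) and -0.55 for Col5a3 (adjusted p = 0.185). Col5a2 passed without control array 3, with -0.58 (adjusted p = 0.00726), and with normexp background correction, with -0.45 (adjusted p = 0.0360). Without mimic array 2 the log2 fold change of Col5a3 was -0.33 (adjusted p = 0.375). Eln, the elastin gene, Col2a1 and Col11a2 were below the filter on background.

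**Figure D4:**
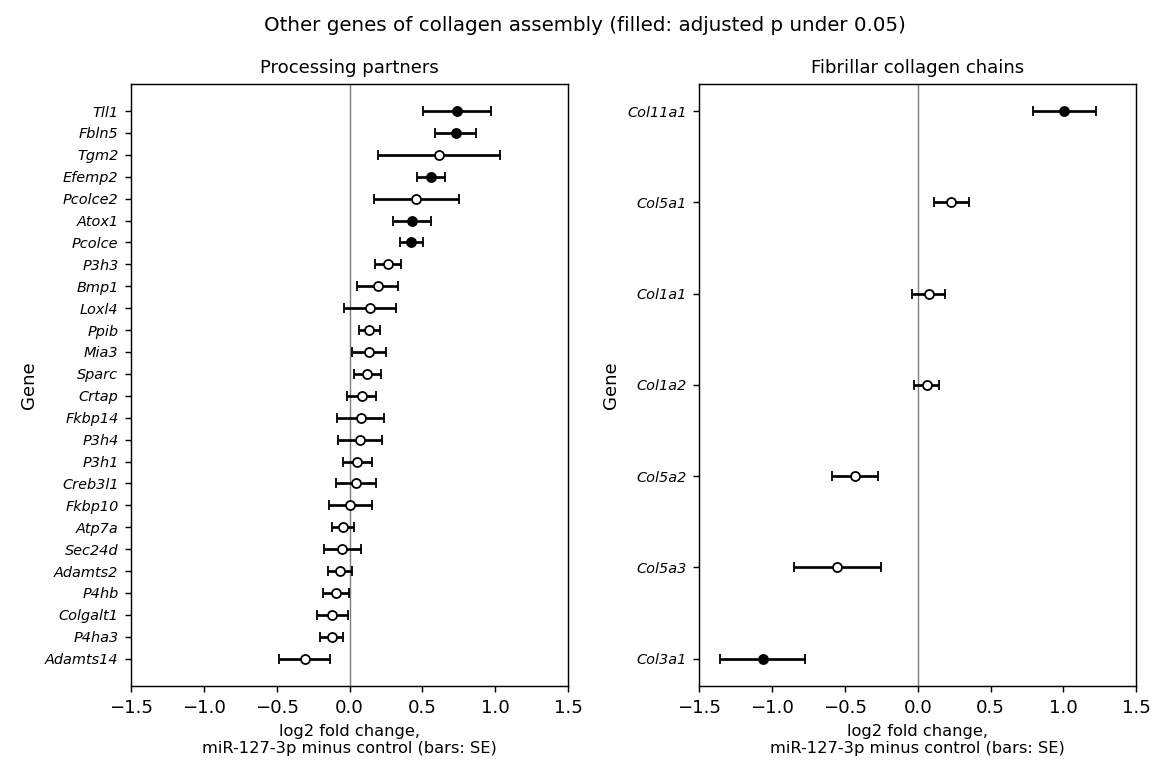
Log2 fold change, miR-127-3p minus control (x), with its SE, for the 26 tested processing partners (left) and the 7 tested fibrillar collagen chains (right), filled where the adjusted p is under 0.05. The 5 filled partners all lie above 0, and among the chains Col11a1 (1.01) is filled above 0 and Col3a1 (-1.07) below it.

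The arrays and cells gave the following context. Between 20756 and 23472 probes were well above background on an array, and correlations between arrays were 0.984 to 0.993 within the mimic group, 0.983 to 0.992 within controls and 0.959 to 0.980 between groups. All 10 fibroblast markers were tested, with a summed level of 1779 to 1970 in mimic arrays and 1606 to 1887 in controls, in units of the array's 75th percentile. Of these, Dcn rose and Pdgfra fell. Of 11 macrophage and leukocyte markers, 10 were tested, of which 9 rose and 0 fell, with 0 lower also at an unadjusted p under 0.05 (limma). Over all tested features 15.9% were called higher and 18.3% lower, and at an unadjusted p under 0.05 (limma) 3906 of 17093 were lower. Summed, these markers reached 65.4 to 76.1 on mimic arrays, against 36.5 to 45.7 on control arrays, and Ptprc, the pan-leukocyte gene, was well above background on no array. Bright probes weigh most in such sums. Here that was Itgam, with log2 means of 5.44 with the mimic and 4.93 in controls, a 1.42-fold rise. Among mimic arrays Itgam was highest in array 5 (5.71), where every other tested marker of this list was lowest. The sums therefore do not follow the array-to-array spread of the other markers. The part of macrophages or leukocytes in the changes of the collagen enzymes was not tested.

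Of 7 keratinocyte markers 4 were tested, and 1, Krt10, rose, with summed levels of 14.9 to 25.4 on mimic arrays, against 10.7 to 19.8 on control arrays, and Krt1 was well above background on no array. Their part in the results was not tested either. Of the markers of endothelium (2 of 6 tested), skeletal muscle (5 of 6) and fat cells (5 of 5), 0 passed, also at an unadjusted p under 0.05 (limma). Over all 17093 tested features 34.2% passed, and at that unadjusted p (limma) 3752 were higher and 3906 lower. Endothelial markers summed to between 9.55 and 13.2 on mimic arrays, against 9.19 and 12.3 on control arrays. Muscle markers summed to between 32.4 and 69.4 on mimic arrays, against 32.7 and 71.4 on control arrays. Fat cell markers summed to between 8.03 and 29.8 on mimic arrays, against 9.72 and 30.3 on control arrays.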

How the data were processed

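RNA of 8 samples was read on Agilent 1-colour mouse arrays with 62976 spots. Per the file headers, the deposited intensity values were extracted by the authors with Feature Extraction 11.5.1.1, whose processed signal is background-subtracted. The deposited value table is on a log2 scale and, per the series' design text, was made in GeneSpring 14.9.1. On every array it equalled the log2 processed signal minus 1 constant, so its scale and direction are those used here.

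Control spots (3671) and outlier spots were left out, spots of a probe were averaged, and the log2 processed signal was taken relative to each array's 75th percentile. A probe was tested if well above background on at least 4 of 8 arrays, an array counting where the flag averaged at least 0.5 over the probe's spots. A gene was represented by its probe of highest mean. Probes were named through RefSeq accessions (28331 probes matched 1 symbol, 27350 kept the file's name). The group difference was fitted in R 4.3.3 by limma 3.58.1, with Benjamini-Hochberg adjustment over all 17093 features and a threshold of 0.05, and paralogs with an exact permutation test. The scripts were tested on simulated data.

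The alternatives were the authors' log2 values as deposited, other scalings, normexp background correction (offset 50), other filters, the mean over probes, slide row or column as a block or alone, and leaving out arrays. Normexp was run on the median signal. The members and gene lists were chosen with earlier results of these data known. Named genes were all members, up to 10 called partners and 4 called hypoxia targets by smallest p, the relatives Loxl4, P4ha3 and P4hb, every tested substrate, and for each called member the feature of highest within-group r. Array number limits the precision.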

Additional observations from a re-analysis of the deposited data

Results flagged for a closer look

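Within each group of 4 arrays, 1 array was set against the other 3 for the 16 probes of the collagen enzymes and the named or plotted partners, substrates and hypoxia targets, 104 groups in all, and in 4 of them it stood apart by Dixon's test. Chance alone gives about 1 in 20 such groups, and the set of genes checked was settled after results had been seen, so the count is a description. Serpinh1 read 7.17 in control array 1, against 6.80 to 6.86 in the other controls. Sec24d, a coat protein gene of collagen export, read 2.73 in mimic array 5, against 2.47 to 2.49 in the other mimic arrays. Mia3, whose product loads collagen into export vesicles, read 4.07 in control array 6, against 4.27 to 4.29 in the other controls. Egln1 read -1.12 in control array 3, against -1.82 to -1.75 in the other controls.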

How the results depend on the processing

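The groups share no replicate numbers, so numbers pair no samples. Each slide column held 1 array of each group, and with column as a block Loxl1, Loxl2, Tll1, Atox1 and Egln1 lost their calls (adjusted p = 0.0534, 0.0583, 0.102, 0.0815 and 0.0694) and 4008 features in all were called. Of the 10 enzymes, the 3 called higher became 0 within slide row 1 and 1 within row 2, and the 2 called lower became 0 with no filter on dim probes, in row 2 and without control 6 and mimic 7 together, and 1 with the mean over probes, with slide column as a block and in row 1. With no filter the calls of Loxl1, Loxl2 and Serpinh1 were lost (adjusted p = 0.0538, 0.0875 and 0.0521), and without control 6 and mimic 7 those of Loxl2 and Serpinh1 (adjusted p = 0.130 and 0.0628). Leaving out 1 array gave 1 to 2 lower enzymes and 3 to 6 higher partners. The 5 higher partners became 3 with no filter, with the column block and without control 6 and mimic 7, 4 with the row block and 1 within each row. The 5851 calls over all features became 3657 with no filter (of 36708 tested), 1759 in row 1, 1611 in row 2 and 3613 without control 6 and mimic 7. The 0 paralog pairs past the test became 6 with normexp, all at an adjusted p of 0.0476 (exact permutation test). Plod1 minus Plod3 there joined the 5 pairs that had 0.0571 in the main fit. The more pairs share the smallest p, the lower is the adjusted p of each, so this move reflects 1 more tied pair. The single-row fits had 4 arrays and the no-filter fit tested more features. Apart from these points, the cause of the other moves was not tested. Among enzymes that did not pass, the sign turned for Loxl3 in row 2 (0.29) and without control 3 (range -0.406 to 0.0174 without 1 array), for Plod1 in row 1 (-0.0970), for P4ha1 with the mean over probes (-0.0202) and for P4ha2 in row 2 (0.0597). Alternatives for partners, substrates and hypoxia targets were chosen after seeing the data. Here the sign turned for Loxl4 with the mean over probes (-0.0647) and in row 1 (-0.11), and in row 1 for Col1a1 (-0.15) and Col1a2 (-0.0212). Plod2 minus Plod3 turned to -0.0542 with normexp and -0.0260 without control 6 and mimic 7, and ran from -0.212 (without mimic 5) to 0.140 (without mimic 2) when 1 array was left out, also below 0 without control 3 or 6. Dim probes near background, such as those of Egln1 and Col11a1, moved most with normexp among the genes named.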
